A study of Mus musculus with 9 samples.

Results

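The genes described here encode neutrophil alarmins and granule proteins: S100a8, S100a9, Lcn2, Ngp, Camp, Ltf, Mmp8, Retnlg, Ly6g and Elane. They were found in the table of counts by the Entrez identifier of each symbol, which gave 9 of the 10 genes among 18755 genes in all. Ly6g, which encodes the surface antigen of mouse neutrophils, was not analysed here. The counts came from whole primary tumors of 4T1, a mouse mammary carcinoma cell line that metastasizes, grown in the mammary fat pad of female BALB/c mice. BI 853520, an inhibitor of the kinase FAK (focal adhesion kinase), is abbreviated BI. Treatment began on day 15 after the cells were injected and lasted 5 days: 6 mice (tumors 4 to 9) received 50 mg/kg BI, and 3 mice (tumors 1 to 3) received the vehicle, 0.5% Natrosol, alone. Both groups thus carried the same tumor cells in the same strain and differed in the inhibitor. A tumor sample holds the 4T1 cells together with the blood, immune and stromal cells of the host, and every animal gave 1 library. The study kept only tumors whose RNA was of sufficient quality.

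Neutrophils make the proteins of their granules in the bone marrow, in steps. The primary (azurophil) granule, filled at the promyelocyte stage, holds serine proteases such as neutrophil elastase, the product of Elane. The specific granule is filled later and holds lactoferrin (Ltf), the cathelicidin precursor (Camp), neutrophilic granule protein (Ngp), lipocalin-2 (Lcn2) and collagenase-2 (Mmp8). S100a8 and S100a9 encode the subunits of calprotectin, an abundant cytosolic heterodimer that acts as an alarmin on TLR4 and RAGE once it is released. Retnlg encodes resistin-like gamma, which is expressed in mature mouse neutrophils. RNA for granule proteins is mostly made by precursors and declines as the cell matures, whereas S100a8 and S100a9 RNA persists in blood neutrophils. The 4T1 tumor is known for secreting G-CSF and for the granulocytes that accumulate in its hosts. Lcn2 is also made by epithelial cells, and its product binds bacterial siderophores.

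On the mouse assembly mm9, S100a8 (Entrez 20201) lay at chr3:90472993-90473956 on the plus strand and S100a9 (Entrez 20202) at chr3:90496554-90499643 on the minus strand. Retnlg (Entrez 245195) lay at chr16:48872721-48874611 on the plus strand, Lcn2 (Entrez 16819) at chr2:32240153-32243317 on the minus strand and Elane (Entrez 50701) at chr10:79349057-79350961 on the plus strand. The other 4 genes were on chromosome 9. Ngp (Entrez 18054, chr9:110322254-110325514), Ltf (Entrez 17002, chr9:110921796-110945270) and Mmp8 (Entrez 17394, chr9:7558429-7568486) were on the plus strand, and Camp (Entrez 12796, chr9:109749889-109751970) was on the minus strand. No exon of these 9 genes overlapped an exon of another gene in the GENCODE vM1 annotation. The counts were made on RefSeq exons, for which overlap was not checked.

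The promoters of 5 of the genes are shown because their RNA divides into 2 kinds of behaviour across the tumors, S100a8, S100a9 and Retnlg on one side and Ngp and Camp on the other. Each is the RefSeq sequence (GRCm38) from 250 bases before to 50 bases after the start site, written 5′ to 3′ on the strand of the gene and placed on mm9 by an exact match. Capitals mark matches on either strand to TTNNGNAA, the letters searched for the C/EBP family of granulocyte transcription factors.
S100a8, chr3:90472743-90473042, plus strand: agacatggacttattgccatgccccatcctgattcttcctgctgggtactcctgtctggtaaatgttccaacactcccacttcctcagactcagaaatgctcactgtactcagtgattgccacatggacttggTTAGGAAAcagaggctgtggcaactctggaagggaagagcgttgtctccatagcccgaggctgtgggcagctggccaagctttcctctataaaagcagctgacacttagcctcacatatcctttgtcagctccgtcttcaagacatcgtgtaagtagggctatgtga
S100a9, chr3:90499594-90499893, minus strand: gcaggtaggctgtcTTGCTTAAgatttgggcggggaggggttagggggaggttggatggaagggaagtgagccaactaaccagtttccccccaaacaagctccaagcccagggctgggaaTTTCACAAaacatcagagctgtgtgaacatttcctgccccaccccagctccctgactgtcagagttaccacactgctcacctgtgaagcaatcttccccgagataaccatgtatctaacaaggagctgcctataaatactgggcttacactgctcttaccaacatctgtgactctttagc
Retnlg, chr16:48872471-48872770, plus strand: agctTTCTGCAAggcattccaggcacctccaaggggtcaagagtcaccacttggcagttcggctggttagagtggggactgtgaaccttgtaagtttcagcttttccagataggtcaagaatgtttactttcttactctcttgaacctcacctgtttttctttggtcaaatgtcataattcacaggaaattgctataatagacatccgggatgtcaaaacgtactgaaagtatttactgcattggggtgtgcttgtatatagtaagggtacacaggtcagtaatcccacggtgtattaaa
Ngp, chr9:110322062-110322361, plus strand: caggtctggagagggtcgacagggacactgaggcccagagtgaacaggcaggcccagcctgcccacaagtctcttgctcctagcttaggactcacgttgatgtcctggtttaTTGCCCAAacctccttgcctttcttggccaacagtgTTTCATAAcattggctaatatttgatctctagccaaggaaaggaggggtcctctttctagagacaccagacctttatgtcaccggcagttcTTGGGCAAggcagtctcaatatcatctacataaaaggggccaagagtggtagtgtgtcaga
Camp, chr9:109751921-109752220, minus strand: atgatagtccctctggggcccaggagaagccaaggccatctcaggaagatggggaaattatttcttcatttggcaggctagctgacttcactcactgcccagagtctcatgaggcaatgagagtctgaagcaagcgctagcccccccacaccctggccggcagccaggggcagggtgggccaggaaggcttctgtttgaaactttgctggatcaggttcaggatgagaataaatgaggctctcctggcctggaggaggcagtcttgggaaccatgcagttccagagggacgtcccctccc

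A TTNNGNAA match lay in the promoters of 7 of the 9 genes, compared with 40.7% of 32851 RefSeq promoters of the same length. S100a8 had 1 match, starting at position -117 from the start site, S100a9 had 2 at -236 and -130, and Retnlg had 1 at -246. Ngp had 3 matches, at -138, -102 and -11, whereas Camp and Elane had none. The letters GAGGAA, read for PU.1 on both strands, occurred in 5 of the 9 promoters and in 28.3% of all. TATAAA on the strand of the gene was present in 2 of the 9, those of S100a8 and S100a9, and in 8.32% of all promoters. TGANTCA, read for AP-1, and TTCNNNGAA, read for STAT factors, were found in 0 of the 9 promoters on either strand, compared with 7.81% and 8.3% of all. TTNNGNAA and TTCNNNGAA can overlap at shared letters. These matches describe the letters of the windows and do not separate the genes that fell from those that did not pass the test.

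Of the 9 genes, 4 fell in BI-treated tumors and 0 rose. S100a9 fell to 0.407-fold, S100a8 to 0.417-fold, Retnlg to 0.370-fold and Lcn2 to 0.438-fold. Ngp, Camp, Ltf, Mmp8 and Elane did not pass the test. Here a gene is said to have risen or fallen when its p from edgeR's quasi-likelihood test, adjusted by Benjamini-Hochberg for the 13966 genes tested, did not exceed 0.05. Of all genes tested, 14.1% fell and 14.6% rose by this rule. Under the cutoffs of the study (an unadjusted p of at most 0.05 and a change of at least 1.5-fold) again 4 of the 9 genes were lower and 0 higher, compared with 3.57% lower and 9.57% higher among all genes. DESeq2 and limma-voom each called 4 of the 9 lower and 0 higher. Of all genes tested, 2159 of 14386 fell by DESeq2 and 2093 of 13966 by limma-voom. At an unadjusted p under 0.05, edgeR had 0 of the 9 higher and 4 lower, and limma-voom had 0 higher and 5 lower. The share of all genes at an unadjusted p alone is not given, here or for the lists below. Counts at that cutoff therefore only describe the genes counted and cannot be set against all genes. For 3 of the 9, S100a8, S100a9 and Retnlg, every BI-treated tumor was below every vehicle-treated tumor, which held for 14% of all genes tested. The reverse, every BI-treated tumor above every vehicle-treated tumor, held for 0 of the 9 genes and for 14.1% of all. The median log2 fold change was -0.66 over the 9 genes and -0.0037 over all genes.

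**Figure D1:**
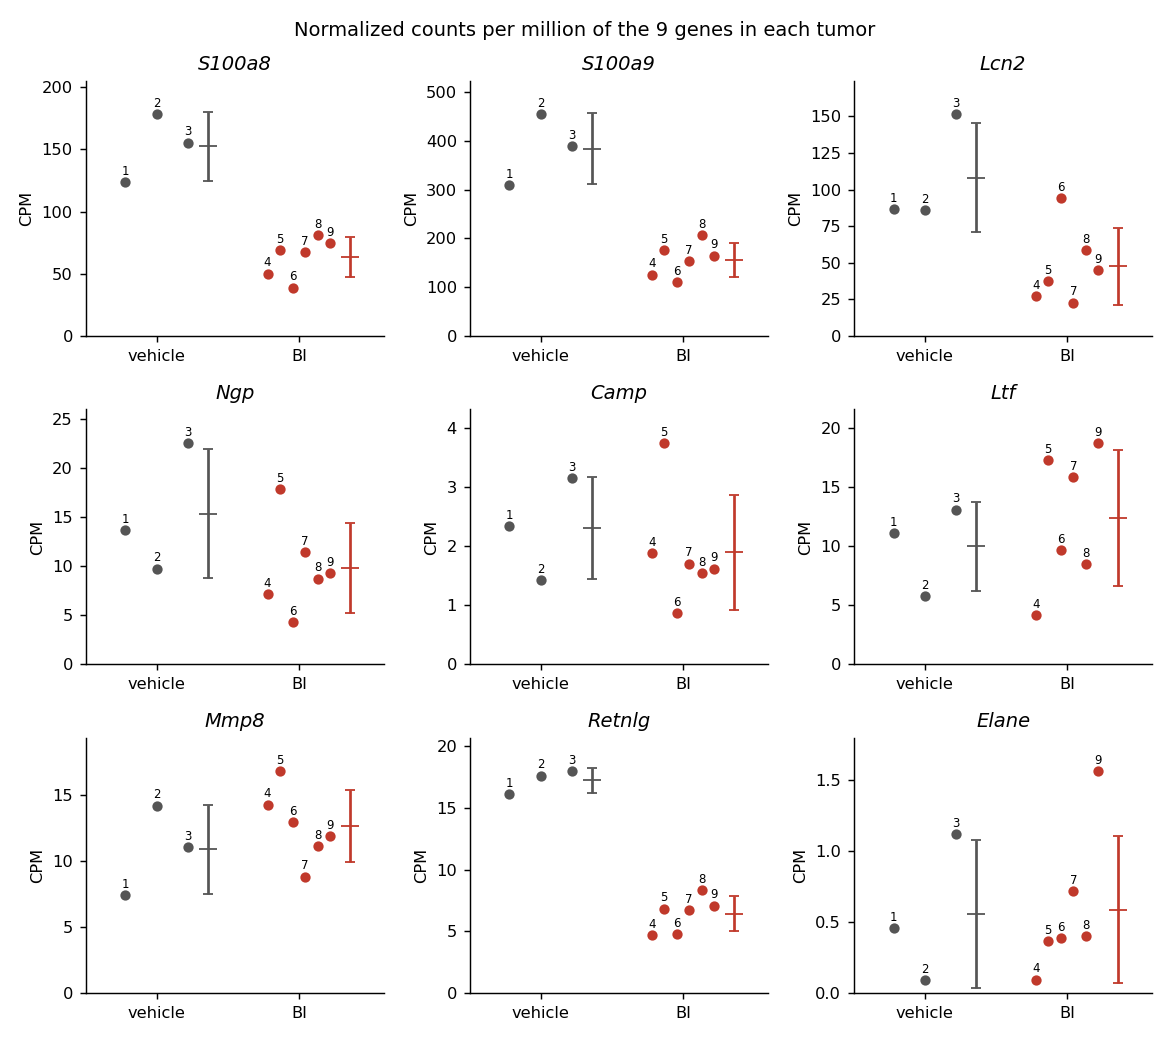
CPM (counts scaled to a TMM-normalized library total of 1000000) of the 9 genes in each numbered tumor, with 1 panel for each gene and its own vertical axis from 0. Gray points are the 3 vehicle-treated and red points the 6 BI-treated tumors, and the bars beside them are group means ± SD. For S100a8, S100a9 and Retnlg the groups do not overlap. For Lcn2, BI tumor 6 (94.0 CPM) lies above 2 of the 3 vehicle-treated tumors, and for Ltf, Mmp8, Camp, Ngp and Elane the groups overlap.

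Levels are given as CPM, that is, counts scaled to a TMM-normalized library total of 1000000. Total gene counts per tumor were 16931607 to 33850245, the highest being vehicle tumor 3, and the TMM factors lay between 0.984 and 1.02. The floor used here, 3 counts, was worth 0.0884 to 0.174 CPM depending on the tumor, which covers counting error only. Markers of carcinoma epithelium such as Krt8 and Krt18, of macrophages and of neutrophils were all present in these whole tumors, with the epithelial adhesion gene Epcam at a low level (1.5 to 2.7 CPM with vehicle, 1.98 to 10.3 CPM with BI). The 9 genes together reached 571, 768 and 765 CPM in the 3 vehicle-treated tumors and between 236 and 386 CPM in the BI-treated tumors. In RNA from whole tumors, a different number of the cells that make an RNA and a different amount of it in each such cell cannot be told apart. Nor do the counts show which cells, neutrophils or others, made it. This holds for every value below.

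S100a9, the larger subunit of calprotectin and the most abundant of the 9 genes, was at 309.7, 454.7 and 389.0 CPM in vehicle tumors 1, 2 and 3. In the 6 BI-treated tumors it ranged from 111 to 207 CPM with a median of 159. The highest BI-treated tumor, number 8, was thus well below the lowest vehicle-treated tumor, number 1. The means were 384 ± 72.6 CPM (SD, n = 3) with vehicle and 156 ± 34.8 CPM (SD, n = 6) with BI, a log2 fold change of -1.30 (SE 0.169, adjusted p = 0.000235 by edgeR).

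S100a8, the partner subunit, stood at 123.5, 178.1 and 155.3 CPM in the vehicle-treated tumors. With BI it ranged from 38.9 to 81.0 CPM with a median of 68.3. As for S100a9, vehicle tumor 2 was the highest and BI tumor 6 the lowest of all 9 tumors, and BI tumor 8 was the highest treated one. The group means were 152 ± 27.5 CPM (SD, n = 3) and 63.6 ± 15.96 CPM (SD, n = 6), and the log2 fold change was -1.26 (SE 0.189, adjusted p = 0.000582 by edgeR).

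Since the 2 proteins form a heterodimer, the balance of the 2 RNAs was compared as the ratio of S100a8 to S100a9 counts in each tumor. It was 0.399, 0.392 and 0.399 in the vehicle-treated tumors. In the BI-treated tumors it ranged from 0.351 in tumor 6 to 0.454 in tumor 9. The vehicle values therefore fell inside the range of the BI values, which were more spread. On the log2 scale the mean was -1.33 ± 0.0153 (SD, n = 3) with vehicle and -1.31 ± 0.133 (SD, n = 6) with BI. The difference of 0.02 gave an exact permutation p of 0.905 (two-sided, by the size of the difference over all 84 divisions of the tumors, the smallest possible p being 0.0119). A difference in the balance of the 2 RNAs was not detected at this number of tumors. Leaving out single tumors moved the difference between -0.0119 and 0.0628.

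Retnlg, which encodes a resistin-like protein of mature neutrophils, was at 16.1, 17.6 and 18.0 CPM in the vehicle-treated tumors. In the BI-treated tumors it was between 4.68 and 8.33 CPM with a median of 6.77. The 3 vehicle-treated tumors lay close together, more so than for any other of the 9 genes in proportion to the mean, and every BI-treated tumor had less than the lowest of them. Means of 17.2 ± 1.00 CPM (SD, n = 3) and 6.40 ± 1.42 CPM (SD, n = 6) corresponded to a log2 fold change of -1.43 (SE 0.158, adjusted p = 8.54e-05 by edgeR). It was the largest fall among the 9 genes. Counts of Retnlg were lower than those of the alarmins, 351, 394 and 610 reads with vehicle and 99 to 149 with BI, and above the floor in every tumor.

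Lcn2, which encodes the siderophore-binding protein lipocalin-2, also fell on average but with overlapping groups. It was at 86.9, 86.2 and 151 CPM in vehicle tumors 1, 2 and 3. In the BI-treated tumors it ranged from 22.7 to 94.0 CPM with a median of 41.3. BI tumor 6, the lowest of all tumors for S100a8 and S100a9, was the highest treated tumor for Lcn2 and exceeded vehicle tumors 1 and 2. The means were 108 ± 37.5 CPM (SD, n = 3) and 47.6 ± 26.1 CPM (SD, n = 6), and the log2 fold change was -1.19 (SE 0.359, adjusted p = 0.0277 by edgeR). Without vehicle tumor 3 the log2 fold change of Lcn2 was -0.87 with an adjusted p of 0.157 (edgeR), and the call was lost.

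The tumors with the most Lcn2 in each group, vehicle tumor 3 and BI tumor 6, were also those with the highest sums of a list of 7 keratinocyte genes. The summed level of that list was 20.9 CPM in vehicle tumor 3 compared with 2.89 and 3.53 CPM in vehicle tumors 1 and 2, and 5.07 CPM in BI tumor 6 compared with 1.32 to 4.23 CPM in the other BI-treated tumors. Krt1, a keratin of differentiated epidermis, had counts in these 2 tumors alone (5.33 and 1.11 CPM) and was at 0 counts in the other 7. Of the 7 keratinocyte genes, 2 passed the filter on low counts and 1 fell (Krt10, log2 fold change -1.61, SE 0.439, adjusted p = 0.0176 by edgeR). Krt10 was at 2.61, 3.22 and 11.5 CPM in vehicle tumors 1, 2 and 3 and at 0.945 to 2.95 CPM with BI. Its groups thus overlapped, and vehicle tumor 3 was far above all others. The part of keratinocytes in the Lcn2 values was not tested. With both tumors left out, a choice made after seeing the data, Lcn2 differed by a log2 fold change of -1.18 with an adjusted p of 0.0178 (edgeR). In that fit 4 of the 9 genes fell, and 1070 of all 14083 genes then tested fell.

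**Figure D2:**
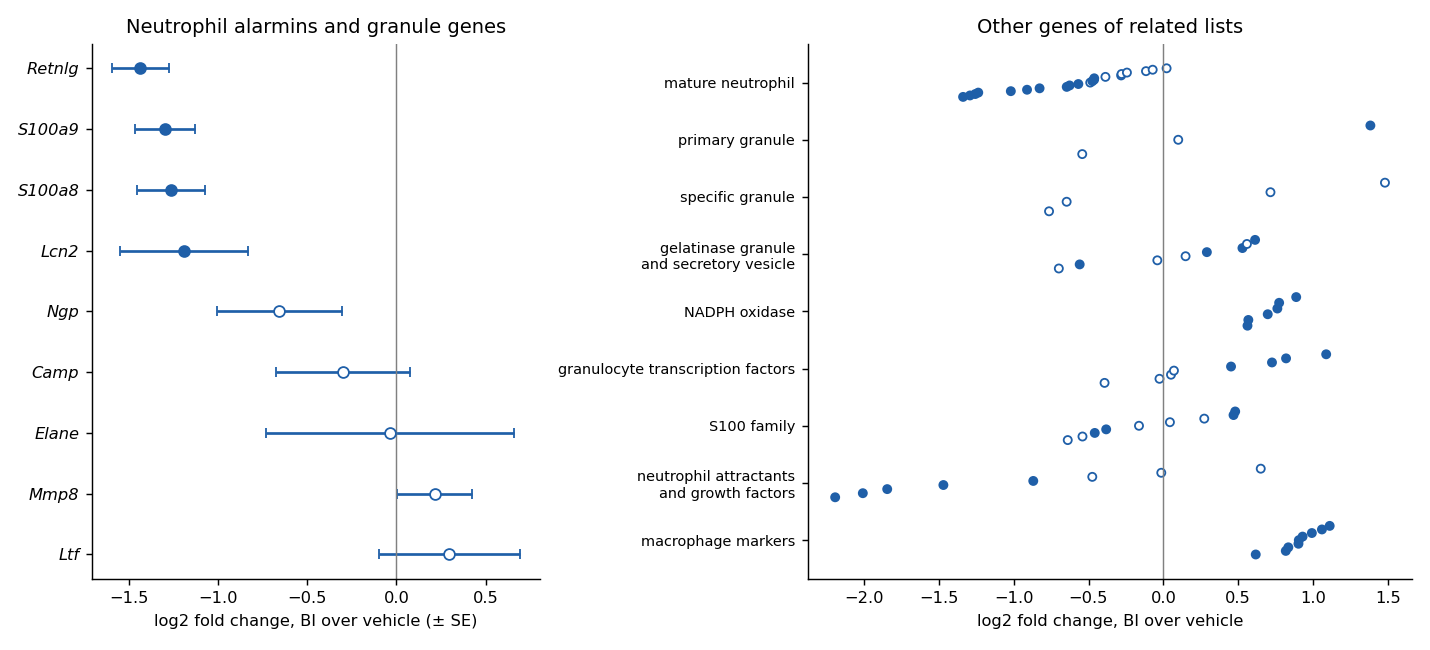
Log2 fold change (BI over vehicle) of each of the 9 genes from edgeR with bars of 1 standard error (left), and of the other genes of 9 related lists, 1 point for each gene (right). Filled points passed the test and open points did not. Retnlg, S100a9, S100a8 and Lcn2 lie between -1.43 and -1.19, Ngp lies at -0.66 and Camp at -0.30 without passing the test, Elane is near 0 with the widest error, and Mmp8 and Ltf are above 0 without passing the test. On the right, mature neutrophil genes lie mostly below 0 (median -0.49), and all NADPH oxidase and macrophage genes lie above 0.

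The other 4 genes of the specific granule and Elane of the primary granule did not pass the test. Ngp, a member of the cystatin family stored in specific granules, was at 13.7, 9.75 and 22.6 CPM with vehicle. With BI it ranged from 4.30 to 17.9 CPM with a median of 9.03. BI tumor 5 exceeded vehicle tumors 1 and 2, and the means of 15.3 ± 6.56 CPM (SD, n = 3) and 9.82 ± 4.62 CPM (SD, n = 6) gave a log2 fold change of -0.66 (SE 0.349, adjusted p = 0.179 by edgeR). Without BI tumor 5 the value was -0.91 with an adjusted p of 0.0405 (edgeR), and without vehicle tumor 3 it was -0.26, so that the size of the Ngp difference was set by single tumors.

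Camp, which encodes the precursor of the antimicrobial peptide CRAMP, had few counts, between 18 and 107 reads per tumor. Its levels were 2.34, 1.43 and 3.15 CPM with vehicle, and 0.869 to 3.75 CPM (median 1.67) with BI. The highest of all tumors was BI tumor 5 and the lowest BI tumor 6, so the treated tumors spanned the vehicle-treated ones. The log2 fold change of Camp was -0.30 (SE 0.377, adjusted p = 0.588 by edgeR), and without vehicle tumor 3 it was 0.0088.

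Ltf, the gene of the iron-binding lactoferrin, was at 11.1, 5.77 and 13.1 CPM with vehicle. Among BI-treated tumors it ranged from 4.205 to 18.8 CPM with a median of 12.8. Both the lowest tumor (BI tumor 4) and the highest (BI tumor 9) were treated ones, and the means of 10.01 ± 3.80 CPM (SD, n = 3) and 12.4 ± 5.77 CPM (SD, n = 6) differed by less than the spread within either group. The log2 fold change of Ltf was 0.30 (SE 0.393, adjusted p = 0.609 by edgeR).

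Mmp8, which encodes the neutrophil collagenase, was at 7.43, 14.2 and 11.1 CPM with vehicle and at 8.81 to 16.8 CPM (median 12.4) with BI. Its means were 10.9 ± 3.38 CPM (SD, n = 3) and 12.6 ± 2.74 CPM (SD, n = 6), and the log2 fold change of 0.21 (SE 0.21) had an adjusted p of 0.476 by edgeR. Elane, the gene of neutrophil elastase, was at the edge of detection, with 10, 2 and 38 reads in the vehicle-treated tumors and 2 to 27 reads in the BI-treated ones. Vehicle tumor 2 and BI tumor 4 were at or below the floor of 3 counts. The levels of Elane were 0.46, 0.0895 and 1.12 CPM with vehicle and 0.0945 to 1.57 CPM with BI, and the log2 fold change of -0.04 had an SE of 0.694 (adjusted p = 0.975 by edgeR). This error was the largest among the 9 genes, and the reads of Elane differed widely between tumors of the same group.

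Levels can be compared between genes only per length, and for this the CPM were divided by the deposited gene length in kilobases. In vehicle-treated tumors the order was S100a9 (788 ± 149 CPM per kilobase, SD, n = 3), S100a8 (389 ± 70.1), Lcn2 (127 ± 43.9), Retnlg (28.3 ± 1.65), Ngp (13.2 ± 5.65), Mmp8 (4.44 ± 1.38), Camp (3.85 ± 1.44), Ltf (3.65 ± 1.39) and Elane (0.604 ± 0.567). Each gene exceeded the next in 3 of 3 tumors except for Mmp8 over Camp (1 of 3) and Camp over Ltf (2 of 3), so the order of these 3 genes was not resolved. S100a9 ranked 34 among the 13966 genes tested by mean level per length in vehicle-treated tumors and S100a8 ranked 96, while Elane ranked 12430.

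With BI the first 5 places per length were held by the same genes in the same order, S100a9 at 321 ± 71.3 CPM per kilobase (SD, n = 6), S100a8 at 162 ± 40.7, Lcn2 at 55.8 ± 30.6, Retnlg at 10.53 ± 2.33 and Ngp at 8.46 ± 3.98. S100a8 exceeded Lcn2 in 5 of 6 tumors, Retnlg exceeded Ngp in 5 of 6, and Ngp exceeded Mmp8 in 5 of 6. Mmp8 (5.15 ± 1.12) exceeded Ltf (4.52 ± 2.10) in 4 of 6 tumors, and Ltf exceeded Camp (3.17 ± 1.63) in 5 of 6. The rank of S100a9 among all genes tested was 123, that of S100a8 was 321, and that of Lcn2 was 1384 after 461 with vehicle. Retnlg moved from rank 3173 to 7049, next to Ngp at 7839. Retnlg exceeded Ngp in 3 of 3 tumors with vehicle, whereas with BI their means per length lay within the spread between tumors.

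**Figure D3:**
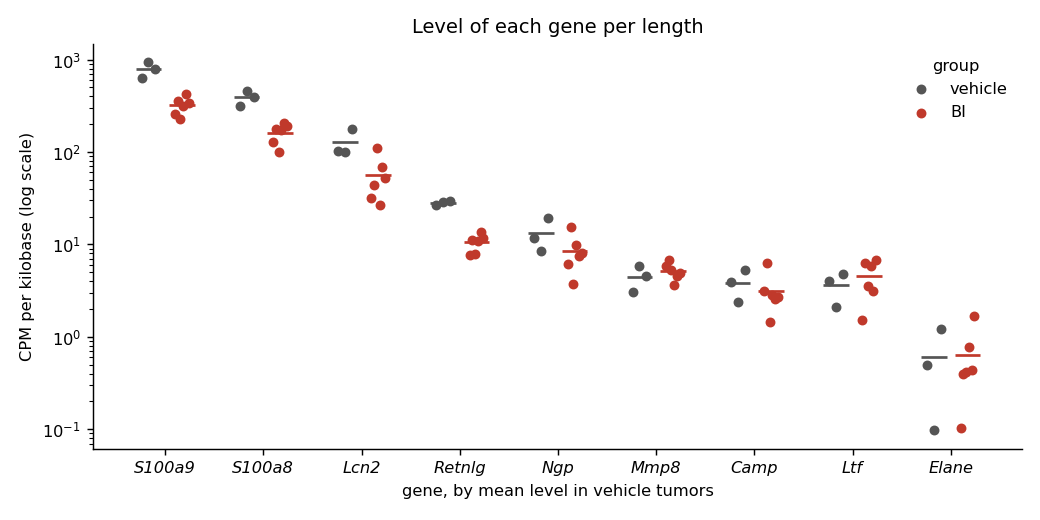
Level of each gene per length (CPM per kilobase, log scale) in each tumor, ordered by the mean of the vehicle-treated tumors. Gray points are vehicle-treated and red points BI-treated tumors, with lines at the means. The genes span about 3 orders of magnitude, from S100a9 (mean 788 with vehicle) to Elane (0.604), and the 4 genes that fell are the 4 most abundant.

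Across the 9 tumors the genes followed different profiles. Likeness was measured as the root mean square difference between 2 genes' log2 CPM after each gene was centred on its own mean over the 9 tumors, so that a smaller value means a closer profile and the difference between the groups counts as well. It is a description over tumors that also share the treatment. S100a8 and S100a9 were the closest pair at 0.100, followed by S100a9 with Retnlg at 0.138 and S100a8 with Retnlg at 0.162. Ngp and Camp came next at 0.276, and Ltf with Elane at 0.563. Lcn2 and Elane were farthest apart, at 1.24.

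The order of the tumors within a group differed in the same way. Vehicle tumor 2 was the highest vehicle-treated tumor for S100a8, S100a9 and Mmp8 and the lowest for Lcn2, Ngp, Camp, Ltf and Elane. Vehicle tumor 3 was the highest of its group for Lcn2, Ngp, Camp, Ltf, Retnlg and Elane. Among BI-treated tumors, number 8 was the highest for S100a8, S100a9 and Retnlg, number 5 for Ngp, Camp and Mmp8, and number 9 for Ltf and Elane. BI tumor 6 was the lowest for S100a8, S100a9, Ngp and Camp and the highest for Lcn2.

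**Figure D4:**
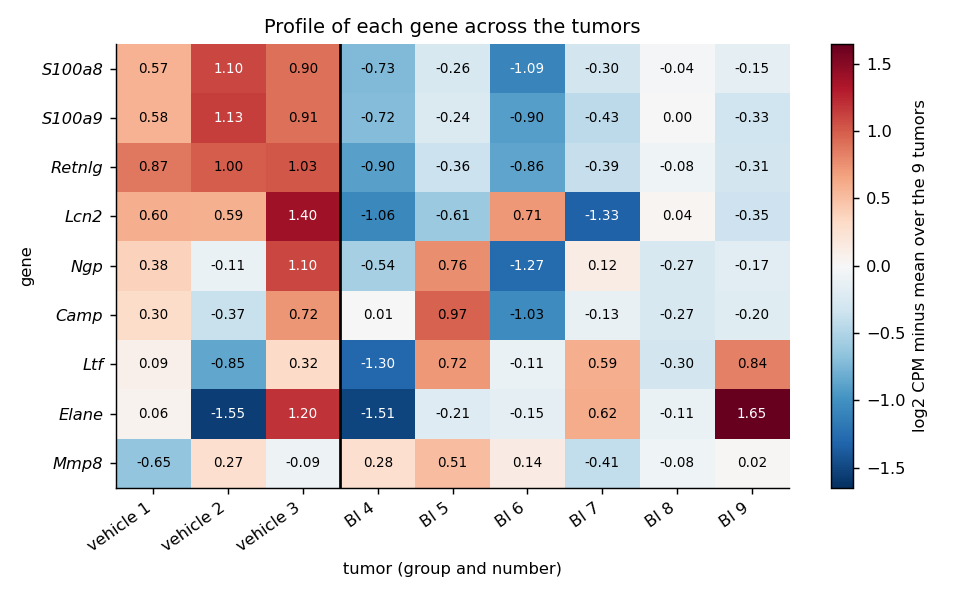
Profile of each gene over the 9 tumors as log2 CPM minus the gene's own mean over the tumors (prior count 2). Each line of cells is 1 gene and each column 1 tumor, red above and blue below the mean, with the value printed in the cell, and the black line divides the groups. S100a8, S100a9 and Retnlg are above their means in the 3 vehicle-treated tumors, Ngp and Camp are high in vehicle tumor 3 and BI tumor 5, and Lcn2 is highest in vehicle tumor 3 (1.40) and, among the treated tumors, in BI tumor 6 (0.71).

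By the same measure, the genes outside these 9 with the closest profile to each were listed. For S100a9 they were Itga7, which encodes an integrin alpha chain (0.191), and Hcar2, the niacin receptor (0.196), and for S100a8 they were Slc2a3, the glucose transporter GLUT3 (0.210), and G0s2, an inhibitor of adipose triglyceride lipase (0.225). Itga7 (0.157) and Sema3e (0.193) were nearest to Retnlg. Lcn2 was nearest to Ptgs2, the inducible cyclooxygenase (0.284), and Cxcl1, a neutrophil chemokine (0.329). All 7 of these genes fell in BI-treated tumors (edgeR), with log2 fold changes between -1.47 (Cxcl1) and -1.09 (Slc2a3). Because the measure includes the difference between the groups, a similar fall follows from how these genes were picked and is no separate result. Ngp was nearest to Cd177, a neutrophil surface protein also found on specific granules (0.311), which did not pass the test (log2 fold change -0.76, adjusted p = 0.111 by edgeR). The second nearest to Ngp was Icam5 (0.350). The nearest genes were Prrg1 (0.125) and A330023F24Rik (0.142) for Mmp8, and Pcdh17 (0.314) and Rai2 (0.350) for Ltf. They were Thpo (0.324) and AI182371 (0.339) for Camp, and Slc2a4 (0.474) and Dsp (0.552) for Elane. Of all the nearest genes, only G0s2 (mature neutrophil), Cd177 (specific granule) and Cxcl1 (attractants) were on the neutrophil lists used here. The others, among them Itga7, Hcar2, Slc2a3, Sema3e, Ptgs2 and Icam5, were not.

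To compare the genes within a tumor, each was set against S100a9 as a log2 ratio of counts, which takes out whatever scales all 9 genes alike. The 7 ratios other than that of S100a8 were added after the values had been seen, and p-values from the exact permutation test were adjusted over all 8 ratios. Because S100a9 itself fell (log2 fold change -1.30 by edgeR), a gene that did not change is higher with BI in this ratio. The ratios thus restate that fall and are no separate result for such a gene. Relative to S100a9, Mmp8 was higher with BI by 1.55 on the log2 scale (2.92-fold) and all 6 BI-treated tumors were above all vehicle-treated ones (exact p = 0.0119, the smallest possible, adjusted p = 0.0952). Mmp8 alone differed by 0.21 (adjusted p = 0.476 by edgeR). Ltf was higher by 1.53 with 5 of 6 BI-treated tumors above (exact p = 0.0476, adjusted p = 0.190). Camp was higher by 0.97 with 4 of 6 above (exact p = 0.0833, adjusted p = 0.222). None of the 8 ratios passed after adjustment over the 8, the smallest possible adjusted p of this design for 1 ratio alone being 0.0952.

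Against S100a9, Ngp differed by 0.62 (exact p = 0.238) and Elane by 1.54 (exact p = 0.179), both with large spread. Retnlg stayed close to S100a9, with a ratio lower by 0.14 on the log2 scale (0.905-fold, exact p = 0.167). The ratio of Lcn2 to S100a9 had nearly the same mean in both groups (difference 0.01, exact p = 0.988), although Lcn2 varied far more among the treated tumors than S100a8 did.

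**Figure D5:**
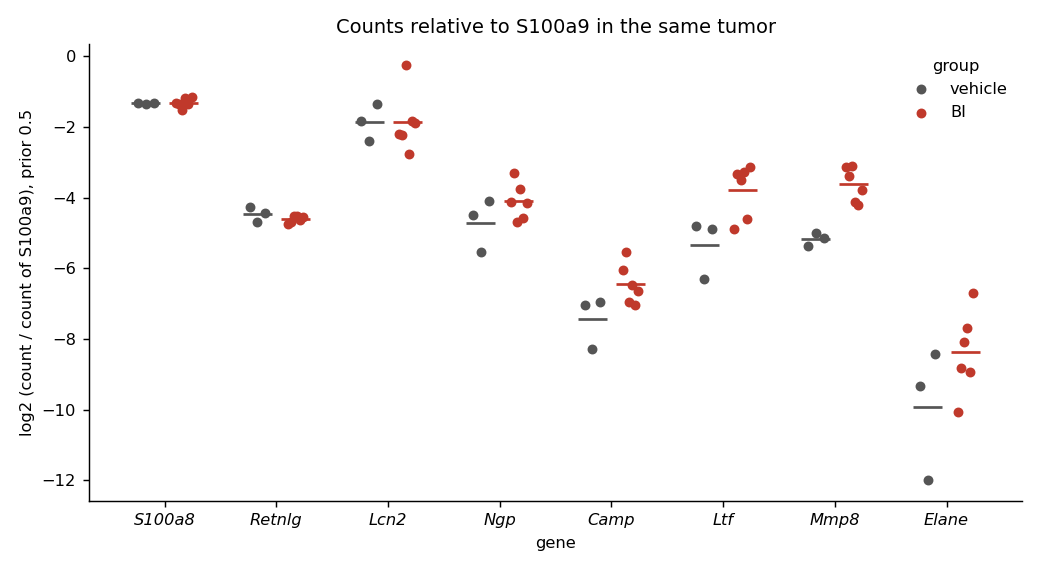
Log2 ratio of the counts of each other gene to those of S100a9 in the same tumor (prior of 0.5 counts). Gray points are the 3 vehicle-treated and red points the 6 BI-treated tumors, with lines at the means. S100a8, Retnlg and Lcn2 have group means within 0.14 of each other, whereas for Mmp8 all 6 treated tumors lie above the vehicle-treated tumors. S100a9 itself fell with BI, so a gene that did not change lies higher with BI here.

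Related genes were read from lists that were written with earlier results of these data known. List genes that rose or fell are counted by the edgeR rule above. Beside these counts stand the 14.6% of all genes that rose and the 14.1% that fell. Given how the lists were made, the counts describe them and are no independent test. Of 21 mature neutrophil genes tested, 13 fell and 0 rose, with a median log2 fold change of -0.49. For 11 of the 21 every BI-treated tumor was below every vehicle-treated one, which held for 14% of all genes tested. DESeq2 and limma-voom also counted 13 that fell and 0 that rose, and at an unadjusted p under 0.05 edgeR had 15 lower and 0 higher. Of all genes tested, 2159 of 14386 fell by DESeq2 and 2093 of 13966 by limma-voom. Without vehicle tumor 2 the number of the list that fell was 8, and 1550 of all 14130 genes then tested fell. Cxcr2, the chemokine receptor of neutrophils, fell from 15.6 to 20.9 CPM with vehicle to 8.35 to 11.6 CPM with BI (log2 fold change -0.91, SE 0.126, adjusted p = 0.000354). Asprv1, a retroviral-like protease (-1.34, adjusted p = 0.000407), Il36g, a cytokine of the IL-1 family (-1.29, adjusted p = 0.00125), and Mxd1, a MYC antagonist (-0.46, adjusted p = 0.00205), fell as well. Asprv1 and Il36g are also expressed in epidermis, and their groups did not overlap, with Asprv1 at 4.72 to 7.84 CPM with vehicle and 1.93 to 3.02 CPM with BI. Slfn4, the gene of the list with the highest CPM (not per length), fell by 0.57 on the log2 scale (adjusted p = 0.00978), and Csf3r, the G-CSF receptor, differed by -0.24 (adjusted p = 0.0736).

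The other granule lists gave smaller counts. Of 9 specific granule genes tested, which include Lcn2, Ngp, Camp, Ltf and Mmp8, 1 fell (Lcn2) and 0 rose, with a median log2 fold change of -0.30. DESeq2 called 1 higher and limma-voom 0, and at an unadjusted p under 0.05 edgeR had 1 higher, Chil3, and 2 lower, Lcn2 and Cd177. Chil3, a chitinase-like protein, was at 0.688 to 1.59 CPM with vehicle and 1.75 to 8.93 CPM with BI without passing the test (log2 fold change 1.48, adjusted p = 0.0503 by edgeR). Of 4 primary granule genes tested, 1 rose: Ctsg, the gene of cathepsin G, at 0.492 to 1.38 CPM with vehicle and 0.970 to 3.17 CPM with BI (log2 fold change 1.38, SE 0.438, adjusted p = 0.0338). Prtn3 (0.10) and Mpo (-0.54), the genes of proteinase 3 and myeloperoxidase, did not pass the test. Of 8 genes of gelatinase granules and secretory vesicles, 3 rose and 1 fell. Itgam and Itgb2, the chains of the integrin Mac-1 that monocytes and macrophages share, rose by 0.53 and 0.29 on the log2 scale, Mmp25, a membrane-bound metalloproteinase, rose by 0.61, and Alpl, alkaline phosphatase, fell by 0.56. Mmp9, which encodes gelatinase B, differed by -0.70 (adjusted p = 0.101).

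Genes upstream and downstream of the alarmins moved in both directions. Values in parentheses are log2 fold changes from edgeR. Of 8 granulocyte transcription factors, 4 rose and 0 fell, with a median of 0.26. At an unadjusted p under 0.05 edgeR had 1 of them lower, Cebpb (-0.39), which DESeq2 counted as lower after adjustment and limma-voom did not. Cebpa (0.82, SE 0.105, adjusted p = 0.000217), Spi1, which encodes PU.1 (0.73), Irf8 (0.45) and Gfi1, at 0.447 to 1.19 CPM with vehicle and 1.55 to 2.47 CPM with BI (1.09), were higher, and Cebpe, the factor of late granulocyte genes, differed by -0.03 with an adjusted p of 0.974. Runx1, with the highest CPM of the 8 (not per length), differed by 0.07. These factors also act in monocytes and macrophages. Of 11 genes for receptors and signaling of the alarmins, 3 rose and 2 fell. Tlr4, a receptor of calprotectin, rose by 0.28, its adaptor Myd88 by 0.46 and Cd33, a sialic acid-binding receptor, by 0.86, whereas the coreceptor Cd14 fell by 0.52 and Bsg, which encodes basigin, fell by 0.37. Of 6 genes for inhibitors and receptors of granule proteins, 1 rose: Serpinb1a, an inhibitor of neutrophil elastase (1.43, adjusted p = 0.0431). By limma-voom 0 of the 6 rose and 0 fell, so that this call was lost, and by DESeq2 2 rose and 1 fell. Slpi, another elastase inhibitor, was at 1801 to 2205 CPM with vehicle and 1305 to 3418 CPM with BI (0.34, adjusted p = 0.301).

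All 6 genes of the phagocyte NADPH oxidase, which neutrophils and macrophages share, rose, with a median log2 fold change of 0.73. Ncf1 (p47phox) was at 76.4 to 84.7 CPM with vehicle and 123 to 142 CPM with BI (0.70, SE 0.0647, adjusted p = 3.76e-05), and Cybb (gp91phox) was at 155 to 172 and 270 to 347 CPM (0.89, SE 0.0865, adjusted p = 4.17e-05). Ncf4 (p40phox) and Cyba (p22phox) were higher by 0.76 and 0.56 on the log2 scale. In the gene families of the alarmins the picture was mixed. Of 9 other S100 genes tested, 2 rose (S100a1 by 0.47 and S100a13 by 0.48) and 2 fell (S100a11 by 0.46 and S100a6 by 0.38), all by less than S100a8 and S100a9. Of 2 other resistin family genes, 0 rose and 0 fell by edgeR and by limma-voom, 1 rose by DESeq2, and at an unadjusted p under 0.05 edgeR had 1 higher, Retn. Retnla differed by 0.84 (adjusted p = 0.372) and Retn by 1.45 (adjusted p = 0.0924). Of 6 Ly6 family genes tested, 4 rose, namely Ly6e (0.97), Ly6a (0.77), Ly6i (0.86) and Ly6c2 (0.88).

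Of 8 genes for attractants and growth factors of neutrophils, 5 fell and 0 rose, with a median log2 fold change of -1.17. The counts were 4 and 0 by DESeq2 and 5 and 0 by limma-voom, and at an unadjusted p under 0.05 edgeR had 5 lower and 0 higher. Csf3, the gene of G-CSF, was at 24.2 to 29.9 CPM with vehicle and 6.34 to 10.6 CPM with BI (-1.85, SE 0.140, adjusted p = 1.29e-05), and Cxcl5 (-2.01), Cxcl1 (-1.47) and Prok2 (-2.19) fell too. The summed level of this list was 183 to 220 CPM with vehicle and 50.7 to 114 CPM with BI. Its members are made by several cell types, the tumor cells included, and their part in the levels of the 9 genes was not tested.

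Markers of other cells moved with treatment as well. All 9 macrophage markers tested rose, among them C1qb (log2 fold change 1.11), C1qa (1.06), Adgre1 (0.93), Csf1r (0.91) and Mrc1 (0.82), and their summed level was 1703 to 2267 CPM with vehicle and 3364 to 4133 CPM with BI. Of 6 monocyte markers, 4 rose, Ms4a4c (1.23), Ly6c2 (0.88), F13a1 (0.88) and Fn1 (0.65), and their sum was 8064 to 10364 CPM with vehicle and 12455 to 18788 CPM with BI, most of it from Fn1, the gene of fibronectin, which stromal and carcinoma cells also make. Of 8 carcinoma epithelium markers, 2 fell, Krt18 by 0.50 and Krt8 by 0.28 on the log2 scale. Epcam differed in the other direction without passing the test (log2 fold change 1.06, adjusted p = 0.0987 by edgeR), and DESeq2 called 1 gene of this list higher where edgeR and limma-voom called 0. The sums of the list were 964 to 1190 CPM with vehicle and 757 to 966 CPM with BI. Of 4 eosinophil markers tested 1 rose (Ear2, 1.53). Of 5 erythroid markers 0 rose and 0 fell by edgeR, DESeq2 or limma-voom, none had an unadjusted p under 0.05 by edgeR, with sums, mostly of the globin gene Hbb-b1, of 83.7 to 94.4 CPM with vehicle and 31.2 to 105 CPM with BI. The part of these cells in the levels of the 9 genes was not tested. S100a8 and S100a9 fell while the shared phagocyte genes Itgam, Itgb2 and Cybb rose in the same libraries.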

How the data were processed

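Messenger RNA of 9 tumors was made into stranded libraries and read as pairs. The authors aligned reads to mm9 with STAR, kept unique hits, and deposited raw counts per RefSeq gene made with QuasR from reads starting in an annotated exon. Use of strand and mates in counting is not given in the sources used here. Symbols were matched by Entrez identifier to RefSeq (18700 of 18755), and positions come from GENCODE vM1 on mm9. Of 160 list entries, 4 were not used here (BC100530, S100z, Retnlb and Marco), and Il36g is listed as Il1f9.

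Counts were tested with edgeR 4.0.16 (limma 3.58.1, R 4.3.3): TMM, filterByExpr (minimum count 10, minimum total 15), quasi-likelihood F test over all 9 tumors, no covariates, Benjamini-Hochberg adjustment over 13966 genes. The study used edgeR without naming the test. CPM used the TMM totals, with a prior count of 2 on the log2 scale. The script was tested on simulated data. Single ratios used a two-sided exact permutation test. No batch is labelled. The alternatives were RLE or library size, no filter, at least 1 CPM in at least 3 tumors, DESeq2 1.42.0, limma-voom, the cutoffs of the study, a prior of 2 counts for the ratio, and leaving out each tumor. The lists under these alternatives, the ratios to S100a9 and leaving out vehicle tumor 3 with BI tumor 6 were chosen after seeing the data. All 10 genes are named, with the 2 nearest genes of each, and of each further list up to 4 called genes with the smallest p and the gene with the highest CPM. Other list genes, such as Csf3r, Prtn3, Mpo and Cebpe, were named after their values were seen. The genes and lists were chosen with earlier results of these data known.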

Additional observations from a re-analysis of the deposited data

Results flagged for a closer look

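On the CPM scale, Camp in BI tumor 5 stood apart from the other 5 BI-treated tumors. Its level there was 3.75 CPM, above every other tumor of either group, and the gap to the next treated tumor was 0.646 of the whole range of the group, which exceeds Dixon's 95% critical value for 6 samples. The other BI-treated tumors lay between 0.869 and 1.89 CPM. The flag depends on the scale. As log2 CPM minus the mean over the 9 tumors, Camp was 0.97 in BI tumor 5, 0.0096 in tumor 4 and -1.03 in tumor 6. There tumor 5 was less isolated. Reads of Camp were 72 in BI tumor 5 and 40 in tumor 4. Ngp was also highest among BI-treated tumors in tumor 5, at 17.9 CPM. The test was made on 10 sets of values (the 9 genes and the ratio of S100a8 to S100a9 in the BI-treated tumors), and chance gives such a gap in about 1 in 20 groups.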

How the results depend on the processing

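S100a8, S100a9 and Retnlg fell under all 16 alternatives, with log2 fold changes of -1.39 to -1.14, -1.43 to -1.16 and -1.51 to -1.33. The number of the 9 genes that fell was 3 to 5, and 0 rose throughout. Lcn2 ranged from -1.51 to -0.87 and did not pass without vehicle tumor 3 (adjusted p = 0.157 by edgeR), and Ngp ranged from -0.91 to -0.10 and passed only without BI tumor 5. Ltf ranged from 0.025 to 0.61 and Mmp8 from 0.0062 to 0.44, above 0 throughout and without passing the test. Camp and Elane changed sign. Camp ranged from -0.61 to 0.0088 when single tumors were left out and was 0.16 without vehicle tumor 3 and BI tumor 6 together. Elane was 0.0522 by DESeq2 and 0.0551 by limma-voom, ranged from -0.49 to 1.07 over the 7 fits without a single tumor in which it was tested (without BI tumor 7 or 9, and at 1 CPM in 3 tumors, it did not pass the filter), and was 1.16 without the 2 tumors together. The log2 ratio of S100a8 to S100a9 differed by -0.0119 to 0.0628 when single tumors were left out. Mature neutrophil genes that fell numbered 8 to 14 when single tumors were left out, with 8 without vehicle tumor 2. In the same fits, the genes that fell among all tested numbered 1172 (without vehicle tumor 3) to 1980 (without BI tumor 5). Without vehicle tumor 3 and BI tumor 6 together, 1070 of all 14083 genes tested fell. The vehicle group held 3 tumors, Camp had 18 to 107 reads per tumor and Elane had 2 to 38. The cause of the changes between fits was not tested. No paired analysis was possible because every tumor came from a different mouse under 1 treatment, and no pairs are labelled.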
